A study of Saccharomyces cerevisiae with 24 samples.

Results

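The genes described here are named for proteins of the mitochondrial ribosome of the budding yeast Saccharomyces cerevisiae. They are the genes of the deposited count table whose standard name is MRPL, MRPS or RSM followed by a number. The rule gave 54 of 7126 genes, of which 34 are named for the large subunit (MRPL) and 20 for the small subunit (MRPS and RSM). All 54 passed the filter on low counts and entered every test. Some further proteins of the mitochondrial ribosome carry other names (the YML, MRP and other series) and form a separate list of 24 genes below.

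The mitochondrial ribosome translates the few proteins encoded by mitochondrial DNA, nearly all of them core subunits of the respiratory chain and of ATP synthase. Its own proteins are encoded in the nucleus, made in the cytosol and imported into mitochondria, so their amounts have to be matched across many separate genes. In yeast many of these mRNAs are bound in the 3′ untranslated region by Puf3, a protein of the Pumilio family that controls their decay, their translation and their location at the mitochondrial surface. Protein names below follow the common scheme for ribosomes, in which u marks a protein shared by all ribosomes, b a protein shared with bacteria and a leading m a protein particular to mitochondria.

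RNA was sequenced from haploid cultures of 2 strains at 4 times, with 3 libraries in each of the 8 groups. Both strains were in the BY4741 background and carried MATa, his3delta1, ura3delta0, leu2delta0, lys2delta0 and a construct of the HYG marker with GFP(Y66F) behind TEFp on chromosome VI. WT had no further change, and the mutant also carried cnb1delta::KanMx and is called cnb1Δ. CNB1 encodes the regulatory subunit of calcineurin, the phosphatase that calcium and calmodulin switch on. Each strain was sampled before treatment (0 h) and after 12, 48 and 72 h in 200 mM CaCl2, in synthetic medium with ammonium chloride, with dilution every 12 h to hold logarithmic growth. No culture without CaCl2 was analysed at the later times, so CaCl2 and time in culture cannot be told apart as the source of a change from 0 h. The strain comparison at each time is between cultures treated alike. For a strain difference that appears only after 0 h, CaCl2 and time in culture cannot be told apart either. The mutant is described by its genotype only, and the number of clones is not given in the sources used here.

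Libraries held 18843220 to 22250806 counts, and the 54 genes took 0.157 to 0.294% of them, with at least 155 counts for every member in every library. CNB1 had 996 to 3320 counts in the WT libraries and 0 to 23 in the cnb1Δ libraries. URA3 and LEU2 had 0 counts throughout and LYS2 had 1 count in 1 library. The 6 marker genes of a MATa haploid were read in every library, with a summed level of 2370 to 2790 CPM (counts scaled to library size) in WT at 0 h and 295 to 495 CPM in WT at 48 h, against 2300 to 2490 and 798 to 974 CPM in cnb1Δ. The 4 markers of MATalpha cells summed to 25.5 to 42.8 CPM and the 6 meiosis markers to 26.4 to 48.5 CPM over all libraries. These markers thus moved with time, and in the MATa list with strain, and their part in the results below was not tested. Among the cnb1Δ libraries, replicate 2 stood highest for the 54 genes at every time, and strain differences are therefore also given without them. Replicates are the triplicates of the labels, and nothing says that they came from separate cultures, so that p-values measure the spread between these libraries, which may be technical.

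A feature that the members share and that the naming rule did not use is the Puf3 motif. The letters TGTANATA (N is any base) were searched on the mRNA strand in the 200 bases after the stop codon. Of the 54 genes, 53 (98.1%) held at least 1 copy, against 14.5% of the 5720 protein-coding genes tested. On the opposite strand the shares were 18.5% and 13.5%. Only RSM22, which RefSeq names a tRNA methyltransferase, had no copy in this window, which says only that these letters are not there. In all 66 copies were found, 41 members held 1 and 12 held at least 2, and the first base of a copy lay 8 to 165 bases after the stop codon with a median of 56.5. The lines below show the motif in capitals with 11 bases on each side, as mRNA strand in DNA letters (RefSeq sequence, build R64), for the members with the largest strain differences and then for those with the most extreme changes over time. A match is a description of sequence and not a measured binding site.
MRPL7 (chrIV:937564-937593, plus strand, motif from base 82 after the stop codon): cccattcgtcaTGTAAATAtataaactgta
MRPL38 (chrXI:131135-131164, plus strand, motif from base 96 after the stop codon): aattaaccaccTGTATATAttgcttaaatt
MRPL50 (chrXIV:669719-669748, minus strand, motif from base 37 after the stop codon): gcgtacaatctTGTATATAggcaacatcgc
MRPL8 (chrX:315714-315743, minus strand, motif from base 27 after the stop codon): gtgtattccctTGTAAATAtatagatgaca
MRPL28 (chrIV:1386537-1386566, plus strand, motif from base 32 after the stop codon): ctgtctcctgcTGTAAATAactgatgatca
MRPL17 (chrXIV:171334-171363, minus strand, motif from base 89 after the stop codon): cgtcaatcacaTGTAAATAtcattaaatga
MRPL19 (chrXIV:292088-292117, minus strand, motif from base 87 after the stop codon): ctgatctattcTGTAAATAtgtatataagt
MRPL3 (chrXIII:323054-323083, plus strand, motif from base 18 after the stop codon): gtttgccatttTGTAGATAgagaactcctt
The variable base of the motif was A, G or T in the copies shown. MRPL19 holds a second copy that starts 8 bases after the one shown, and MRPL28 and MRPL3 also hold a second copy.

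**Figure D1:**
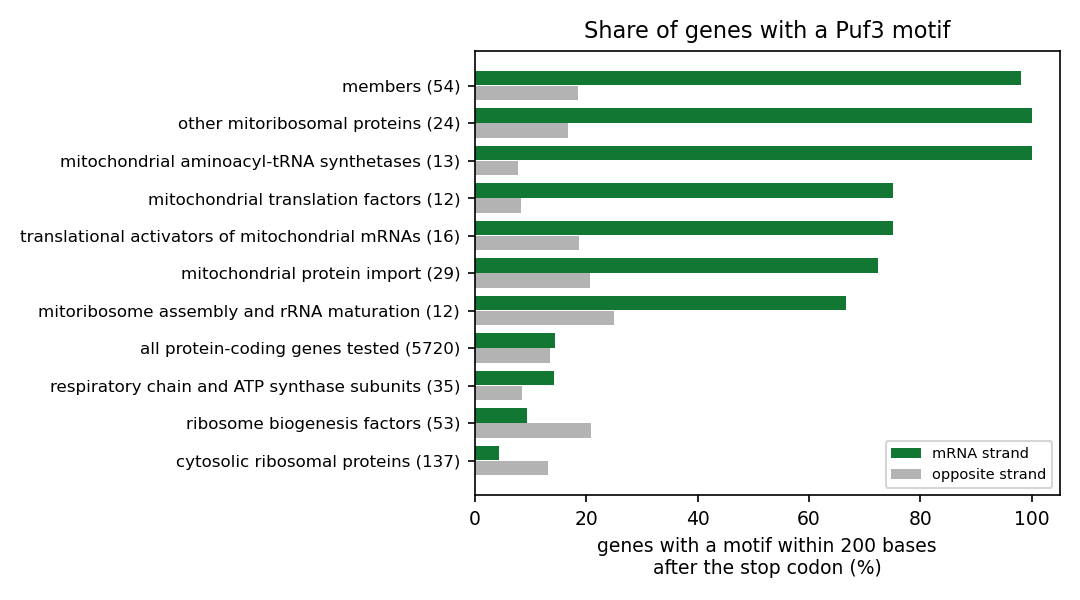
Share of genes (%, horizontal axis) with the Puf3 motif within 200 bases after the stop codon on the mRNA strand (green) and on the opposite strand (grey), for the 54 members, for 9 other gene lists and for all protein-coding genes tested, with the number of genes in brackets. The members stand at 98.1% and all genes at 14.5%, while the opposite strand gives 18.5% and 13.5%.

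Level per length was read from the authors' deposited TPM (transcript abundance scaled for gene length and library). The mean TPM over the 24 libraries had a median of 43.5 among the members, against 23.5 over the whole TPM table, and ranged from 15.04 to 162. MRPS12, whose protein uS12m belongs to the decoding region of the small subunit, averaged 162 TPM and ran from 147 to 195 TPM over single libraries. MRPL39 (bL33m) averaged nearly the same, 161.8 TPM, with a wider span of 89.5 TPM in a WT library at 0 h to 274 TPM in a cnb1Δ library at 48 h. By group mean MRPL39 lay above MRPS12 in 4 of 8 groups (WT at 48 h and cnb1Δ at 12, 48 and 72 h) and below it in the other 4. MRPL36 (bL31m) averaged 105.4 TPM, from 84.4 to 141. The 3 lowest were MRPL4 (uL29m) at 15.04 TPM, RSM22 at 15.7 TPM and RSM25 (mS23) at 25.3 TPM, with ranges of 10.8 to 19.7, 8.94 to 23.6 and 14.4 to 43.8 TPM. RSM22, which RefSeq names a tRNA methyltransferase, set aside, parts of the same particle were thus encoded by mRNAs at very different levels per length. TPM carries no correction for composition between libraries, so changes are taken below from counts scaled with edgeR's TMM method, which corrects for composition.

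In WT some members fell and others rose at each time. At 12 h, 18 of 54 fell and 2 rose, where a call is an edgeR adjusted p under 0.05, against 22.4% of all 6253 genes tested that fell and 24.6% that rose. The median log2 fold change was -0.22 (0.856-fold), beside 0.01 for all genes. At 48 h, 12 members fell and 17 rose (30% and 33.7% of all genes), with a median of -0.00. At 72 h, 12 fell and 19 rose (29.8% and 34.7%), with a median of 0.04. At both later times the shares of members called in either direction were near those of all genes, and members were called in both directions. In a culture, fewer cells in a state and less RNA per cell cannot be told apart. In the 6 comparisons with 0 h the median log2 fold change of all genes was 0.01 to 0.08 with TMM and 0.18 to 0.38 when counts were scaled to library totals alone. Under the latter the split of WT members became 4 higher and 9 lower at 12 h, then 27 against 3 by 48 h and 29 against 4 by 72 h. Of all 6253 genes, 2066 were then called higher and 883 lower at 12 h. The same counts were 3044 and 1082 at 48 h, and 2992 and 1171 at 72 h. Changes over time are therefore relative to the middle of all genes. Without the WT library of replicate 3 at 0 h, 11 members were lower at 12 h. A single member was higher at 12 h without the WT library of replicate 1 or 2 at 0 h, or without that of replicate 2 or 3 at 12 h.

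The largest fall belonged to MRPL19, which encodes uL11m, the protein at the base of the stalk where translation factors bind. MRPL19 stood at 30.9, 29.9 and 32.6 CPM at 0 h in WT, at 15.1, 16.6 and 15.9 after 12 h, at 13.9, 18.3 and 15.5 after 48 h and at 14.6, 16.4 and 15.2 after 72 h. Every treated WT library lay far below the 3 libraries at 0 h. The log2 fold changes were -0.97 ± 0.12, -0.97 ± 0.12 and -1.02 ± 0.12 (± SE) at 12, 48 and 72 h, with edgeR adjusted p-values of 4.34e-06, 1.56e-06 and 7.97e-07. The gene overlaps the open reading frame YNL184C by 113 bases on the same strand, and how reads in the overlap were counted is not given in the sources used here. MRPL3 encodes mL44, a large subunit protein. The WT levels of MRPL3 were 70.6, 70.3 and 74.6 CPM at 0 h, 51.6, 50.03 and 56.5 after 12 h, 37.1, 53.2 and 47.2 after 48 h and 40.6, 52.8 and 42.5 after 72 h. Its fall was -0.65 ± 0.11 at 48 h (edgeR adjusted p = 4.3e-05) and -0.66 ± 0.11 at 72 h (2.9e-05), with no overlap with 0 h. MRPL7 encodes uL5m of the large subunit. WT libraries read 39.04, 35.6 and 40.05 CPM for MRPL7 at 0 h, 26.2, 24.5 and 23.5 after 12 h, 25.6, 28.6 and 25.7 after 48 h and 24.4, 24.4 and 23.3 after 72 h. It fell by 12 h and stayed low, with -0.67 ± 0.11 at 72 h (edgeR adjusted p = 2.42e-05). MRPL23 (uL13m) stood at 51.1, 49.6 and 60.8 CPM at 0 h and 33.4, 33.5 and 35.2 CPM at 12 h, a change of -0.66 ± 0.11 (edgeR adjusted p = 9.69e-05). RSM26 (mS42 of the small subunit) stood at 69.7, 68.5 and 71.3 CPM at 0 h, 42.4, 40.8 and 49.95 CPM at 12 h and 40.7, 51.7 and 46.1 CPM at 48 h. Its changes were -0.65 ± 0.10 and -0.60 ± 0.10 (edgeR adjusted p = 3.48e-05 and 4.11e-05). In WT, 11 members were lower at all 3 times, namely MRPL13, MRPL19, MRPL23, MRPL3, MRPL35, MRPL4, MRPL6, MRPL7, RSM23, RSM26 and RSM28 (19.6% of all genes were lower at all 3 times).

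Other members rose in WT. MRPL17 encodes mL46. MRPL17 stood at 17.9, 17.9 and 20.2 CPM at 0 h in WT, at 23.8, 27.4 and 26.5 after 12 h, at 29.9, 33.4 and 34.2 after 48 h and at 33.04, 31.5 and 29.3 after 72 h. It had the largest rise at each time, 0.48 ± 0.09, 0.80 ± 0.09 and 0.75 ± 0.09 (edgeR adjusted p = 0.000185, 2.74e-07 and 5.01e-07), and the treated libraries lay above all of those at 0 h. RSM27 encodes mS33. The WT levels of RSM27 were 20.005, 19.9 and 25.5 CPM at 0 h, 25.3, 27.2 and 26.3 after 12 h, 33.7, 32.6 and 33.1 after 48 h and 32.2, 35.9 and 35.9 after 72 h. Its rise was 0.27 ± 0.10 at 12 h (edgeR adjusted p = 0.029), a call lost without replicate 1 (0.24) or 2 (0.21) at 0 h or without replicate 2 (0.24) or 3 (0.27) at 12 h, and 0.60 ± 0.10 and 0.67 ± 0.10 later (2.89e-05 and 8.44e-06). MRPS16 encodes bS16m, and MRPL24 encodes bL28m. MRPS16 stood at 27.5, 26.9 and 33.2 CPM at 0 h and 42.3, 44.4 and 47.6 CPM at 48 h, a rise of 0.62 ± 0.11 (edgeR adjusted p = 0.000123). MRPL24 stood at 18.7, 18.1 and 19.5 CPM at 0 h and 31.4, 28.01 and 30.1 CPM at 72 h, a rise of 0.67 ± 0.12 (7.61e-05). MRPL17 and RSM27 were the members that rose at all 3 times (21.2% of all genes did). MRPS12 stood at 100.02, 94.2 and 110.4 CPM at 0 h and 83.4, 81.9 and 91.5 CPM at 12 h. Its change of -0.25 ± 0.09 (edgeR adjusted p = 0.0368) was the smallest called fall at 12 h and lost its call under 8 of 31 alternatives, with a range of -0.30 to -0.08 over all 31. The losses included replicates 1 and 3 at 0 h and replicates 1 and 2 at 12 h in WT (-0.23 to -0.16).

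In cnb1Δ most called members rose. The share of members that rose was near that of all genes at 12 h and larger at 48 and 72 h. At 12 h, 11 members rose and 4 fell (22.1% and 20.2% of all genes), with a median of 0.13 beside 0.02. At 48 h, 36 rose and 3 fell (28.9% and 26.4%), with a median of 0.39 (1.31-fold) beside 0.05. At 72 h, 34 rose and 2 fell (31.6% and 28%), with a median of 0.37 (1.30-fold) beside 0.05. By subunit, 22 of 34 large and 14 of 20 small subunit members rose by 48 h, and 22 and 12 by 72 h. Without the 4 cnb1Δ libraries of replicate 2 the counts of rises were 3, 28 and 27 (12.7%, 22.2% and 25.7% of all genes), the falls were 2, 1 and 1, and the medians were 0.04, 0.34 and 0.33. Leaving out single libraries gave 4 to 17 rises at 12 h, with 7 and 6 without replicate 1 and 3 at 0 h, 4 without replicate 2 at 12 h and 17 without replicate 3 at 12 h.

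**Figure D2:**
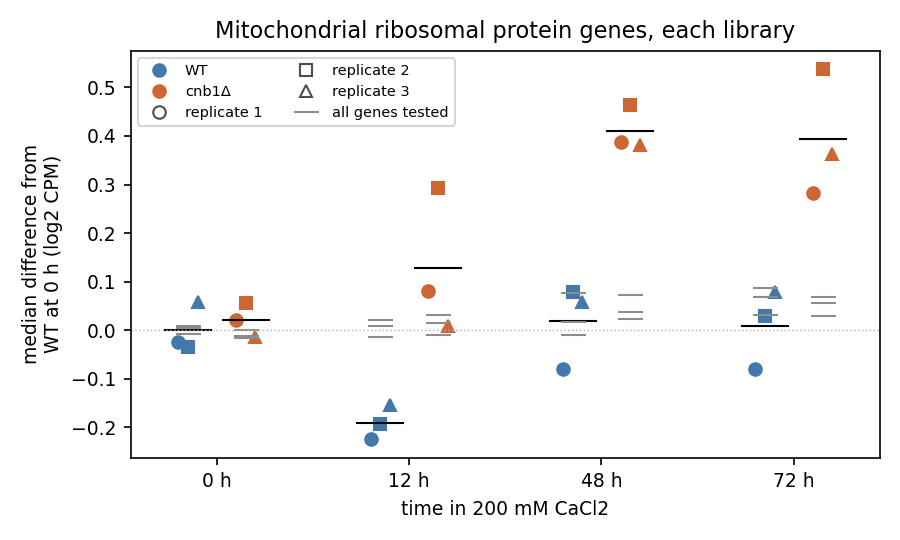
Median over the 54 members of the log2 CPM difference from the mean of the WT libraries at 0 h (vertical axis), for each library by time in CaCl2 (horizontal axis). Colours mark WT (blue) and cnb1Δ (orange), shapes the replicate number, black bars the mean of the 3 libraries, and grey dashes the same median over all genes tested. At 48 h the cnb1Δ libraries lie between 0.38 and 0.46 and the WT libraries between -0.08 and 0.08.

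MRPL28 (mL40) had the largest rise of any member in cnb1Δ at 72 h. WT libraries read 10.97, 10.96 and 10.1 CPM for MRPL28 at 0 h, 9.63, 9.26 and 8.84 after 12 h, 17.5, 12.2 and 13.5 after 48 h and 18.03, 14.1 and 13.3 after 72 h. MRPL28 stood at 10.8, 10.5 and 9.21 CPM at 0 h in cnb1Δ, at 14.8, 18.6 and 14.9 after 12 h, at 19.7, 16.9 and 15.3 after 48 h and at 20.2, 18.6 and 17.1 after 72 h. In cnb1Δ the level was already up at 12 h by 0.66 ± 0.14, then 0.76 ± 0.14 and 0.87 ± 0.14 (edgeR adjusted p = 0.00136, 0.000213 and 4.9e-05), while the WT libraries at 12 h lay below those of 0 h without overlap, a change of -0.21 ± 0.15 that was not called. MRPL8 encodes bL17m. The WT levels of MRPL8 were 24.3, 19.4 and 19.997 CPM at 0 h, 21.2, 23.1 and 20.4 after 12 h, 25.8, 24.4 and 24.2 after 48 h and 28.4, 31.1 and 22.5 after 72 h. cnb1Δ libraries read 23.2, 23.3 and 22.6 CPM for MRPL8 at 0 h, 33.5, 36.5 and 30.03 after 12 h, 33.2, 36.2 and 32.3 after 48 h and 34.2, 39.2 and 33.002 after 72 h. Its rise in cnb1Δ at 12 h was 0.54 ± 0.11 (edgeR adjusted p = 0.000995), and no treated cnb1Δ library overlapped those at 0 h. MRPL17 rose in the mutant as in WT. MRPL17 stood at 21.2, 20.3 and 24.1 CPM at 0 h in cnb1Δ, at 28.6, 29.7 and 29.98 after 12 h, at 41.4, 41.1 and 37.8 after 48 h and at 35.8, 38.6 and 37.6 after 72 h. The changes were 0.43 ± 0.09, 0.88 ± 0.09 and 0.77 ± 0.09 (edgeR adjusted p = 0.000617, 2.73e-07 and 6.99e-07), and the difference from the WT changes was -0.05 ± 0.12, 0.08 ± 0.12 and 0.03 ± 0.12, none of them called. RSM27 stood at 22.6, 21.4 and 23.2 CPM at 0 h and 36.9, 39.2 and 41.3 CPM at 48 h, a rise of 0.81 ± 0.10 (2.33e-06). MRPS16 went from 30.6, 33.9 and 35.7 CPM to 52.3, 66.1 and 57.8 CPM at 72 h, a rise of 0.81 ± 0.11 (8.24e-06). MRPL24 went from 21.4, 19.8 and 21.7 CPM to 31.8, 42.02 and 36.4 CPM, a rise of 0.81 ± 0.12 (1.54e-05), all by edgeR. The calls of MRPL28 at the 3 times, of MRPL8 at 12 h, of MRPL17 at 12 and 48 h, of RSM27 at 48 h and of MRPS16 and MRPL24 at 72 h held under all 31 alternatives run, and that of MRPL17 at 72 h was not run under them.

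Few members went down in cnb1Δ. MRPL19 fell there too. The cnb1Δ levels of MRPL19 were 28.9, 33.6 and 28.3 CPM at 0 h, 19.7, 21.6 and 17.9 after 12 h, 19.3, 21.5 and 24.1 after 48 h and 18.4, 22.4 and 24.8 after 72 h. The changes were -0.62 ± 0.12, -0.49 ± 0.12 and -0.47 ± 0.12 (edgeR adjusted p = 0.000481, 0.00196 and 0.00231). The difference from the WT changes was 0.35 ± 0.17, 0.48 ± 0.17 and 0.55 ± 0.17, not called at any time. For the cnb1Δ changes, scaling to total counts ended the calls at 48 and 72 h with -0.25 and -0.19. MRPL3 also fell. cnb1Δ libraries read 66.4, 68.7 and 64.7 CPM for MRPL3 at 0 h, 53.5, 55.97 and 54.1 after 12 h, 49.9, 56.95 and 54.3 after 48 h and 51.1, 55.9 and 52.6 after 72 h. Its changes were -0.31 ± 0.11 at 48 h and -0.32 ± 0.11 at 72 h (edgeR adjusted p = 0.0205 and 0.0148), lost under 4 and 3 of 31 alternatives. The call at 48 h ended without replicate 2 at 0 h (-0.29) or replicate 1 at 48 h (-0.26), that at 72 h without replicate 1 at 72 h (-0.30), and both without the 4 libraries of replicate 2 (-0.33 and -0.34) or under scaling to total counts (-0.07 and -0.04). RSM23 encodes mS29, a GTP-binding protein of the small subunit. It stood at 57.1, 63.1 and 55.6 CPM at 0 h, 41.4, 45.4 and 41.3 CPM at 12 h and 51.6, 52.4 and 51.9 CPM at 48 h. The changes were -0.46 ± 0.07 (6.31e-05) and -0.17 ± 0.07 (0.0425), and the value at 48 h turned positive, 0.07, under scaling to total counts. The call at 48 h was lost under 12 of 31 alternatives, and without replicate 2 at 0 h the value was -0.12. RSM26 stood at 66.5, 72.3 and 62.9 CPM at 0 h and 53.98, 56.4 and 53.3 CPM at 12 h, a change of -0.30 ± 0.10 (0.0207) whose call was lost under 5 of 31 alternatives, among them without replicate 2 at 0 h (-0.25) and without replicate 1 (-0.29) or 3 (-0.28) at 12 h. At the other end of the calls, MRPL1 (uL1m) had the smallest called rise at 72 h, from 50.98, 42.5 and 36.5 CPM to 51.98, 51.8 and 50.3 CPM, or 0.24 ± 0.10 (0.0399). That call was lost under 9 of 31 alternatives, including the removal of any 1 of replicates 2 and 3 at 0 h or of replicates 1, 2 and 3 at 72 h (0.14 to 0.26).

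The members kept nearly the same order of response in both strains, and the mutant stood above WT along that order. WT and cnb1Δ responses come from separate libraries, and across the 54 genes, which are not independent replicates and share library scaling, they correlated with Pearson's r of 0.798, 0.928 and 0.939 at 12, 48 and 72 h. Over all genes tested r was 0.776, 0.858 and 0.834. MRPL19 was the lowest member in each strain at each time, and MRPL17, RSM27, MRPL24 and MRPS16 were near the top at 48 and 72 h. The cnb1Δ response was above the WT response for 53, 54 and 53 of 54 members at 12, 48 and 72 h, against 50.1%, 51.4% and 49.6% of all genes.

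**Figure D3:**
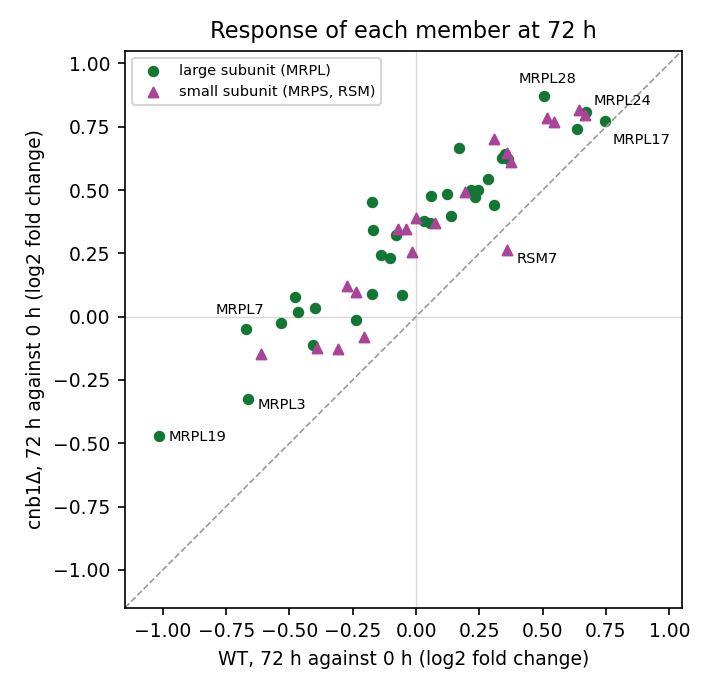
Log2 fold change at 72 h against 0 h in WT (horizontal axis) and in cnb1Δ (vertical axis) for each of the 54 members, as circles for the large and triangles for the small subunit; the dashed line marks equal responses. Of the 54 points, 53 lie above the line, from MRPL19 at -1.02 in WT and -0.47 in cnb1Δ to MRPL17 at 0.75 and 0.77.

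The strains were compared directly at each time. Before CaCl2, 0 of 54 members differed by edgeR (0% of all genes were higher and 0.032% lower), with 1 member at an unadjusted p under 0.05 and 0 calls by DESeq2. The median difference was 0.03 and 33 of 54 members were positive. At 12 h, 23 members were higher in cnb1Δ and 0 lower (8.43% and 6.96% of all genes), with a median of 0.29 (1.22-fold). At 48 h, 24 were higher and 0 lower (2.7% and 2.19%), with a median of 0.40 (1.32-fold). At 72 h, 27 were higher and 0 lower (4.67% and 4.45%), with a median of 0.35 (1.27-fold). The medians over all genes were -0.00, -0.00 and -0.02. No member was lower at an unadjusted p under 0.05 in edgeR at these 3 times, and DESeq2 called 0 lower and 23, 29 and 31 higher. Of all genes DESeq2 called 599, 219 and 369 higher and 509, 221 and 334 lower. The difference was positive for 53, 54 and 53 members, with MRPS12 at 12 h (-0.01 ± 0.09) and RSM7 at 72 h (-0.05 ± 0.11) as the exceptions. The 3 libraries of each strain did not overlap, with cnb1Δ higher, for 6 members at 0 h (8.35% of all genes) and for 37, 47 and 38 at the later times (21.1%, 9.07% and 11.9%).

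**Figure D4:**
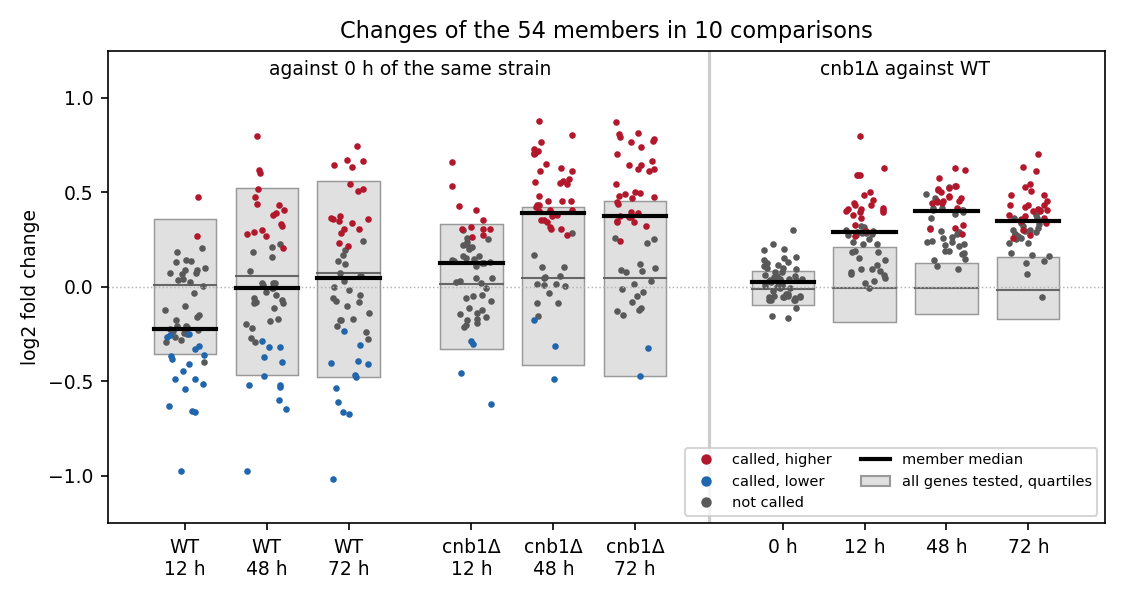
Log2 fold change (vertical axis) of each member, as points, in 6 comparisons with 0 h of the same strain and in 4 comparisons of cnb1Δ with WT (horizontal axis). Red and blue points were called higher and lower at an edgeR adjusted p under 0.05, black bars are member medians, and grey boxes with a grey line give the quartiles and median of all genes tested. In the strain comparisons the member medians are 0.03, 0.29, 0.40 and 0.35, and no member is called lower.

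Called members were 14, 18 and 16 of the 34 in the large subunit and 9, 6 and 11 of the 20 in the small subunit. At all 3 treated times 15 members were called higher, against 1.68% of all genes. They were MRPL13, MRPL20, MRPL23, MRPL38, MRPL39, MRPL50, MRPL6, MRPL7, MRPL8, MRPS18, MRPS8, RSM24, RSM25, RSM26 and RSM28. At least at 1 time 36 members were called higher, against 660 of the 6253 genes tested, and 18 members were called at none. For 52 members the difference was positive at all 3 times, against 29.6% of all genes. The members' differences had an interquartile range of 0.23, 0.22 and 0.14 on the log2 scale, against 0.40, 0.27 and 0.33 for all genes. The same range was 0.17, 0.16 and 0.18 for the other mitochondrial ribosomal proteins, 0.20, 0.08 and 0.08 for the mitochondrial aminoacyl-tRNA synthetases and 0.14, 0.10 and 0.07 for the cytosolic ribosomal proteins.

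These counts were lower without the cnb1Δ libraries of replicate 2, and so were those of all genes. Without all 4 of them, 8, 10 and 8 members were called higher at 12, 48 and 72 h (4.66%, 1.23% and 2.04% of all genes), with medians of 0.19, 0.35 and 0.28 and with 47, 54 and 52 members positive. Of all genes 293, 77 and 128 were then called higher, against 527, 169 and 292 in the main fit. The effect of fewer libraries and that of these libraries themselves cannot be told apart. Leaving out single libraries of a compared group also gave lower counts in the cases below. Shares of all genes in those fits are not given here. At 12 h, 7 were called without replicate 2 of cnb1Δ, 13 without its replicate 1, and 14, 15 and 13 without WT replicate 1, 2 and 3. At 48 h, 7 were called without replicate 2 of cnb1Δ, 12 without its replicate 3 and 10 without WT replicate 3. At 72 h, 7 were called without replicate 2 of cnb1Δ, and 16 and 13 without WT replicate 1 and 3. The median difference was positive in every replicate number at these 3 times. Between same-numbered libraries 1, 2 and 3 it was 0.27, 0.45 and 0.15 at 12 h. The 48 h values were 0.43, 0.38 and 0.32, and the 72 h values were 0.31, 0.46 and 0.30. Before CaCl2 the same differences were 0.04, 0.08 and -0.08. At 48 h all 54 members were higher in cnb1Δ within each replicate number.

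MRPL7 had the largest strain difference at 72 h. MRPL7 stood at 38.5, 45.9 and 36.9 CPM at 0 h in cnb1Δ, at 35.5, 40.6 and 35.6 after 12 h, at 37.5, 45.9 and 39.3 after 48 h and at 34.1, 45.1 and 38.1 after 72 h. The WT level fell and the cnb1Δ level did not pass the test at any time, and from 12 h the libraries of the strains did not overlap. The difference was 0.59 ± 0.11, 0.62 ± 0.11 and 0.70 ± 0.11 (edgeR adjusted p = 0.000963, 0.00178 and 0.000281). MRPL38 encodes uL14m of the large subunit. The WT levels of MRPL38 were 29.6, 33.4 and 34.4 CPM at 0 h, 25.3, 28.3 and 28.6 after 12 h, 27.4, 31.7 and 31.1 after 48 h and 27.4, 30.7 and 28.3 after 72 h. cnb1Δ libraries read 32.5, 33.7 and 32.02 CPM for MRPL38 at 0 h, 35.7, 38.8 and 33.8 after 12 h, 40.4, 47.5 and 46.6 after 48 h and 37.3, 52.6 and 44.3 after 72 h. Here the WT changes did not pass the test, the mutant level rose at 48 and 72 h, and the strains separated without overlap from 12 h. The difference was 0.40 ± 0.11, 0.58 ± 0.11 and 0.64 ± 0.11 (edgeR adjusted p = 0.0166, 0.00315 and 0.000754). MRPL50 encodes bL9m. MRPL50 stood at 34.6, 30.7 and 30.9 CPM at 0 h in WT, at 26.4, 23.7 and 24.7 after 12 h, at 26.5, 31.3 and 27.8 after 48 h and at 26.3, 29.3 and 30.01 after 72 h. The cnb1Δ levels of MRPL50 were 33.5, 35.2 and 34.7 CPM at 0 h, 36.7, 40.6 and 35.7 after 12 h, 38.2, 50.4 and 43.6 after 48 h and 33.5, 51.7 and 45.8 after 72 h. The level fell in WT at 12 h and rose in cnb1Δ at 48 and 72 h, again without overlap between strains. The difference was 0.59 ± 0.13, 0.63 ± 0.13 and 0.61 ± 0.13 (edgeR adjusted p = 0.00315, 0.00553 and 0.00388). At 12 h the largest differences were those of MRPL28, 0.80 ± 0.14 (edgeR adjusted p = 0.000881), and MRPL8, 0.63 ± 0.11 (0.000799). For MRPL28 the difference at 48 and 72 h did not pass the test, at 0.26 ± 0.14 and 0.30 ± 0.14 (edgeR adjusted p = 0.379 and 0.222). The differences of MRPL28, MRPL8 and MRPL50 at 12 h and of MRPL7, MRPL38 and MRPL50 at 48 and 72 h kept their calls under all 31 alternatives, also without the 4 libraries of replicate 2.

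**Figure D5:**
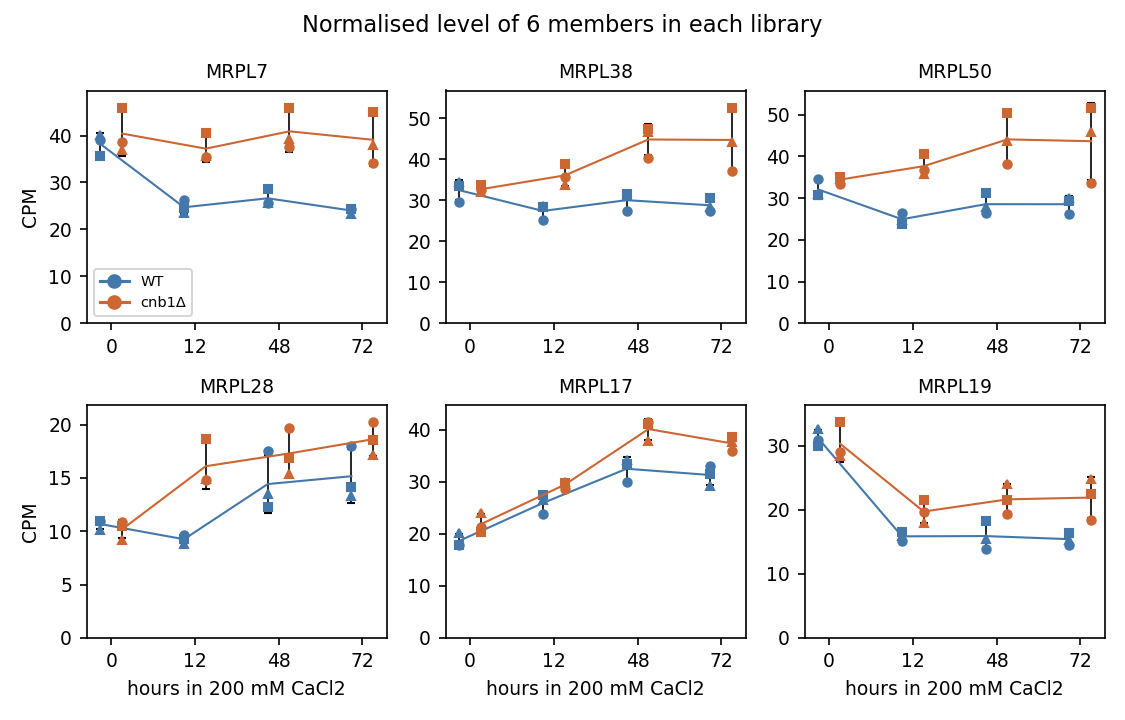
TMM-scaled CPM (vertical axis, from 0) against hours in CaCl2 (horizontal axis, unevenly spaced times drawn at equal steps) for 6 members in WT (blue) and cnb1Δ (orange). Points are libraries (circle, square and triangle for replicates 1, 2 and 3), lines join group means, and black bars are ± SD of 3 libraries. From 12 h the libraries of the strains do not overlap for MRPL7, MRPL38, MRPL50, MRPL17 and MRPL19, and MRPL17 rises and MRPL19 falls in both strains. For MRPL28 they do not overlap at 12 h and overlap later.

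The smallest called differences between the strains were mostly near the threshold, although the libraries of the strains did not overlap in any of them. At 12 h they belonged to MRPL40 (uL24m), at 26.6, 30.8 and 31.2 CPM in WT and 33.2, 41.004 and 32.4 CPM in cnb1Δ (0.27 ± 0.09, edgeR adjusted p = 0.0476), and to RSM26, at 42.4, 40.8 and 49.95 CPM and 53.98, 56.4 and 53.3 CPM (0.30 ± 0.10, 0.0481). RSM24 (mS35) stood at 33.2, 31.5 and 38.3 CPM in WT and 41.5, 45.3 and 42.4 CPM in cnb1Δ at 12 h (0.33 ± 0.08, 0.00558). At 48 h RSM24 stood at 40.9, 36.6 and 39.6 CPM and 47.9, 46.3 and 48.1 CPM (0.28 ± 0.08, 0.0353). MRPL17 at 48 h differed by 0.30 ± 0.08 (0.0401) with the levels given above. MRPL9 (uL3m) stood at 45.05, 49.3 and 50.9 CPM and 63.1, 56.2 and 61.2 CPM (0.31 ± 0.09, 0.0478). At 72 h RSM23 stood at 45.3, 45.8 and 43.6 CPM and 51.7, 55.2 and 54.5 CPM (0.26 ± 0.07, 0.0215). MRPS28 (uS15m) stood at 37.1, 32.7 and 30.99 CPM and 40.7, 43.1 and 38.01 CPM (0.27 ± 0.08, 0.0398), and MRPL15 (mL57) at 25.8, 29.7 and 26.1 CPM and 33.4, 35.9 and 31.2 CPM (0.30 ± 0.09, 0.0496), all by edgeR. Each of these 9 calls was lost under 1 (RSM24 at 12 h) to 24 (MRPL9) of the 31 alternatives, and 8 of them without the 4 cnb1Δ libraries of replicate 2, where MRPL9 kept its call at 0.36 (edgeR adjusted p = 0.0333). Leaving out 1 library of a compared group ended 8 of the 9 calls in at least 1 case, the exception being RSM24 at 12 h. The value closest to 0 in these cases was 0.15, for MRPL40 without cnb1Δ replicate 2 at 12 h.

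Whether the response itself differed between the strains was tested as the difference of the 2 changes from 0 h, which carries the error of 4 groups. At 12 h 1 member was called, MRPL28, at 0.87 ± 0.21 (edgeR adjusted p = 0.031; 0.976% of all genes were called higher and 0.848% lower). At 48 h 0 members were called (0.112% of all genes higher and 0.08% lower), with 26 at an unadjusted p under 0.05, all higher. The share of all genes at that unadjusted level is not given here. At 72 h 1 member was called, MRPL35, which encodes mL38 of the large subunit, at 0.51 ± 0.12 (edgeR adjusted p = 0.0467; 0.416% of all genes higher and 0.624% lower). WT libraries read 39.1, 41.7 and 44.3 CPM for MRPL35 at 0 h, 28.9, 30.4 and 29.9 after 12 h, 28.6, 31.4 and 30.2 after 48 h and 29.9, 30.1 and 26.4 after 72 h. MRPL35 stood at 35.6, 40.8 and 36.2 CPM at 0 h in cnb1Δ, at 33.1, 37.3 and 33.9 after 12 h, at 35.8, 40.5 and 36.8 after 48 h and at 34.8, 40.4 and 35.4 after 72 h. MRPL35 fell in WT and did not pass the test in cnb1Δ, and part of its value came from 0 h, where the mutant stood at -0.15 ± 0.09 relative to WT without a call. The medians over the members were 0.27, 0.34 and 0.30, beside 0.00, 0.01 and -0.00 for all genes. The count depended on the model. When the model also held a term for replicate number within each strain (a block), 6, 4 and 4 members were called higher at 12, 48 and 72 h. Within a strain, same-numbered libraries deviated together over time (every correlation over 0.1) only in WT between 12 and 0 h. DESeq2 called 3, 0 and 5 members higher (126, 16 and 63 of all genes), and neither alternative called a member lower. The share of all genes under the block is not given here. Leaving out single libraries gave 0 to 3 calls at 12 h, 0 at 48 h and 0 to 5 at 72 h. The call of MRPL28 was lost under 11 of 31 alternatives, with the lowest value, 0.75, without cnb1Δ replicate 2 at 12 h. That of MRPL35 was lost under 19, with the lowest, 0.44, without cnb1Δ replicate 2 at 72 h.

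Other gene lists of the mitochondrial translation system were counted in the same fits, in the order of their place in the system. Among 24 other proteins of the mitochondrial ribosome, 10, 9 and 12 were higher in cnb1Δ at 12, 48 and 72 h and 0 lower, with medians of 0.32, 0.33 and 0.33. Of 12 mitochondrial translation factors, 3, 2 and 5 were higher, with medians of 0.28, 0.19 and 0.44. Of 13 mitochondrial aminoacyl-tRNA synthetases, which load amino acids on mitochondrial tRNAs, 3, 0 and 2 were higher, with all 13 positive at each of these times. Of 29 genes for mitochondrial protein import, 4, 3 and 5 were higher. In these 3 lists 0 genes were lower. Of 16 translational activators of mitochondrial mRNAs, 2, 0 and 1 were higher and 0 lower, with medians of 0.15, 0.15 and 0.15. Of 12 genes for assembly of the mitochondrial ribosome and rRNA maturation, 1 was higher at each time and 1 was lower at 12 h, with medians of 0.06, 0.08 and 0.10. The 35 nuclear genes for subunits of the respiratory chain and ATP synthase behaved otherwise. Most fell in both strains (29, 29 and 27 of 35 in WT and 24, 28 and 26 in cnb1Δ), with medians of -1.36 and -1.12 at 48 h, and 5, 0 and 0 were higher in cnb1Δ than in WT. Most of the 53 genes for assembly of the cytosolic ribosome rose in both strains (40 in WT and 41 in cnb1Δ at 48 h) and 0 of them were higher in cnb1Δ, while 1 was lower at 12 h and 0 later. Of 137 cytosolic ribosomal protein genes, 2, 0 and 1 were higher and 2, 0 and 0 lower, with medians of -0.05, 0.02 and -0.12, and 131 were negative at 72 h.

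The share of genes with the Puf3 motif was 100% for the other mitochondrial ribosomal proteins and for the synthetases, 75% for the translation factors and for the translational activators, 72.4% for import, 66.7% for mitochondrial ribosome assembly, 14.3% for the respiratory chain, 9.43% for ribosome assembly and 4.38% for cytosolic ribosomal proteins. Outside the 54 members, genes with a motif were called higher in cnb1Δ in 14.5%, 7.33% and 10.5% of 778 genes at 12, 48 and 72 h, against 7.84%, 1.74% and 3.54% of 4888 genes without it. Their median differences were 0.08, 0.07 and 0.07, against -0.02, -0.01 and -0.02. The 778 genes include the 24 other mitochondrial ribosomal proteins, the 13 synthetases and the motif-bearing genes of the other mitochondrial lists above. Motif and gene function were not separated in these counts. Members with a motif had medians of 0.29, 0.41 and 0.35 at these times. RSM22, the member without it, differed by 0.29 ± 0.13, 0.30 ± 0.13 and 0.31 ± 0.13 with no call. The mRNA of PUF3 itself fell by 0.41 on the log2 scale in WT at 12 h (edgeR adjusted p = 0.00451) and fell by 0.36 at 72 h (0.00772), and none of its changes in cnb1Δ passed the test. It was higher in cnb1Δ than in WT at 12 h by 0.40 (0.0182) and at 72 h by 0.41 (0.0199), while 0.28 at 48 h did not pass the test (0.166). Its difference in response was not called at any time (edgeR adjusted p = 0.239, 0.632 and 0.248). The part of Puf3 in the strain difference was not tested.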

How the data were processed

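The authors deposited raw counts (whole numbers) of 7126 genes in all 24 libraries, and TPM of 6744 genes. Per the submitters' processing notes featureCounts, DESeq2 and genome build R64 were used, and per the labels' protocols RNA was extracted with acid phenol and enriched for polyA. Neither the aligner nor strand use is given in the sources used here. MRPL19 and MRPL51 overlap other annotated genes, so some of their reads are uncertain, and a search with blastn 2.17.0 found no other member whose coding sequence matches another gene over at least 100 bases at 90% identity or more. Columns were matched to samples by their titles.

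Counts were filtered with edgeR's filterByExpr (6253 genes left), scaled by TMM and fitted with edgeR 4.0.16 in R 4.3.3 (quasi-likelihood F test), in 1 model of 8 group means with 16 residual degrees of freedom. Adjusted p-values are Benjamini-Hochberg over all genes tested within each of 13 comparisons, two-sided, called under 0.05. Libraries held 18843220 to 22250806 counts. CPM are TMM-scaled, except for the summed marker levels, which were scaled to library totals alone. The log2 CPM used a prior count of 2, and the SE of a log2 fold change is approximate. On simulated counts for cnb1Δ against WT at 48 h over 6199 genes, 44% of changes of 0.5 and 78% of changes of 1 on the log2 scale were recovered. The simulated libraries were drawn independently, without pairing by replicate number. The members' median strain differences lay below 0.5, and recovery at their size was not simulated. Alternatives were RLE size factors, total count scaling, no filter, DESeq2 1.42.0, a replicate block and libraries left out singly. The block used replicate numbers within each strain for changes over time and their differences. For strain comparisons it used numbers shared by both strains. Sets left out were the 4 late replicate 1 libraries (48 and 72 h) and, chosen after seeing the data, the 4 cnb1Δ replicate 2 libraries. Late replicate 1 libraries lay below the others of their group for the members, with medians of -0.19 to -0.07 on the log2 scale. Without them the members' median at 48 h was 0.10 for the WT change and 0.32 for the strain difference. Replicate pairs all differed by more than sampling noise, with a chi-square per degree of freedom of at least 4.61, for cnb1Δ replicates 1 and 3 at 12 h. Same-numbered libraries deviated together (every correlation over 0.1) in 4 of 10 comparisons, where the numbers pair libraries. The model itself has no block. Correlations were 0.228 to 0.396 between 12 and 0 h in WT, and between strains 0.193 to 0.229 before CaCl2, 0.162 to 0.569 after 48 h, and 0.314 to 0.689 after 72 h.

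The members and lists were chosen with earlier results of these data known. Values in every library are given for the 3 called members with the highest and the 3 with the lowest log2 fold change in a comparison, for up to 3 called members against the more frequent direction, and for the 3 highest and 3 lowest in mean TPM. Motifs were searched in RefSeq sequence of the R64 assembly.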

Additional observations from a re-analysis of the deposited data

Results flagged for a closer look

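Both members whose response to time in CaCl2 was called different between the strains are flagged, and that same test chose them. For MRPL28 the change from 0 to 12 h lay 0.87 higher in cnb1Δ than in WT on the log2 scale (edgeR adjusted p = 0.031), with every cnb1Δ library at 12 h above every WT library. For MRPL35 the change from 0 to 72 h lay 0.51 higher (edgeR adjusted p = 0.0467), and part of this value came from 0 h. The call of MRPL28 was lost under 11 of 31 alternatives and that of MRPL35 under 19. The reasons for these differences in response were not tested.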

How the results depend on the processing

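With scaling to total counts, in WT 4 rose and 9 fell at 12 h, against 27 and 3 by 48 h, then 29 and 4 by 72 h. Of all 6253 genes 2066, 3044 and 2992 then rose and 883, 1082 and 1171 fell. In cnb1Δ 26 members rose and 1 fell at 12 h, against 2099 and 607 of all genes. At 48 and 72 h 0 members fell there, against 951 and 1026 of all genes. The differences in response at 12 and 72 h had 0 member calls (43 and 11 of all genes higher, 50 and 26 lower). The same scaling turned RSM23 in cnb1Δ at 48 h to 0.0682 (edgeR adjusted p = 0.583). Without the 4 cnb1Δ replicate 2 libraries, chosen after seeing the data, 3 members rose and 2 fell in cnb1Δ at 12 h, 1 fell at 48 h and 1 at 72 h, and 8, 10 and 8 were higher than WT at 12, 48 and 72 h. Difference in response calls at 12 h became 3 with DESeq2 (126 of all genes higher). Without the 4 late replicate 1 libraries they became 7 (3.47% of all genes). At 72 h they became 5 with DESeq2 (63 of all genes) and 7 without those libraries (1.23% of all genes). They were 2 with RLE (29 of all genes) and 0 without a filter. For these moves in counts the cause was not tested.

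With the replicate block the differences in response had 6, 4 and 4 calls at 12, 48 and 72 h, and the strain comparisons 28, 34 and 34. Shares of all genes under the block are not given here. In the 4 comparisons where the numbers pair libraries the block moved no count by over 1.5 times, while it moved all 3 counts of differences in response.

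Leaving out single libraries gave 1 to 3 rises and 11 to 21 falls in WT at 12 h, 13 to 18 and 9 to 13 at 48 h, and 14 to 19 and 9 to 14 at 72 h. In cnb1Δ it gave 4 to 17 rises and 2 to 4 falls, 30 to 37 and 1 to 3, and 26 to 35 and 1 to 2. Members higher than in WT numbered 0 at 0 h, 7 to 25, 7 to 29 and 7 to 32, with 0 lower, and differences in response 0 to 3, 0 and 0 to 5. Shares of all genes with single libraries left out are not given here. Of 56 called values of named members, 35 kept their call under all 31 alternatives. Every member had at least 155 counts in every library.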
